A study of Mus musculus with 28 samples.

Results

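Acetylation was followed at the promoters of 66 mouse genes named for splicing factor families. They were the genes annotated as protein-coding whose symbols start with Srsf, Hnrnp, Sf3a, Sf3b, Snrp or Prpf. A region belonged to a gene when its centre lay within 1 kb of the gene's transcription start site (TSS). By this rule 64 of the 66 genes had a region, among 14073 protein-coding genes with one, and they held 94 of the 16783 promoter regions and of the 127646 regions in all. The genes without a region were Snrpn, which encodes SmN and was placed at its most upstream start, and Hnrnpa1l2-ps2.

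Pre-mRNA splicing is carried out by the spliceosome, a particle built from small nuclear ribonucleoproteins (snRNPs), each a short RNA wrapped by a ring of Sm proteins (Snrp genes), and from proteins that join it stepwise, such as the SF3a and SF3b complexes at the branch site (Sf3a and Sf3b) and the Prpf factors that assemble and remodel it. SR proteins (Srsf) bind exons and favour their use, whereas heterogeneous nuclear ribonucleoproteins (hnRNPs, Hnrnp) coat nascent transcripts and often oppose it. These genes are active in nearly every dividing cell, and their promoters mostly lie in CpG islands, where acetylated histones mark active transcription.

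The cells were mouse embryonic stem cells of a FOXD3-iKO genotype, kept in L2i medium, in which FOXD3, a forkhead transcription factor, can be removed with tamoxifen (4HT). CUT&Tag, in which an antibody tethers a transposase to its target, was run against H3K27ac and H2BK120ac, acetylated lysines of histones H3 and H2B found on active chromatin. The H3K27ac groups were unsorted cells that got EtOH, the solvent, or 4HT, with 2 samples each and a labelled time of 24 h. The H2BK120ac groups, all from the same knockout line, were coded ED, ET, TD and TT with 3 samples each and also a labelled time of 24 h. Their values were deposited under a name that carries async, as were those of H3K27ac, and the name for H2BK120ac alone also carries trp. The labels used here do not spell the letters out, so which of these groups lost FOXD3 is not stated here. The authors merged the samples of each group into 1 column, so there is no spread between replicates, no test was possible, and differences are given by size with counting intervals. Sorted cells (12 samples) are outside this account and were not used here.

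Promoter values are coverage as deposited (CPM, scaled to library depth), averaged over a gene's regions by their width. Taking the most frequent value of each column as that of 1 fragment gave depths of 4.82 M to 6.08 M fragments for H3K27ac and 2.25 M to 2.43 M for H2BK120ac. No H3K27ac value lay below that of 1 fragment, but 13.7% to 16.1% of the covered regions did so in the H2BK120ac columns, down to 0.25 of it, and how the bases of a region were averaged is not stated. The depths, fragment numbers and counting intervals for H2BK120ac therefore rest on an assumed unit. Regions with no coverage made up 38.7% of all regions in ED and in ET, 48.2% in TD and 47.5% in TT. The Foxd3 promoter itself had H3K27ac of 1.02 in EtOH and 2.81 in 4HT, but the labels do not say which part of the gene is deleted, so these values do not check them. Pluripotency genes with a promoter region (11 genes) had a median H3K27ac of 1.98 in EtOH, from 0.165 at Dppa3 to 5.54 at Klf2. The medians were 0.165 for 6 fibroblast genes, 0.176 for 3 primitive endoderm genes and 0.197 for 4 neural genes, also counting only genes with a promoter region.

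The promoters of 6 genes are printed because these genes had the highest H3K27ac in EtOH (Hnrnpa0 and Hnrnpk) or were at least 2-fold higher with a mean pile-up of 5 fragments in both H2BK120ac comparisons of the first letter (Srsf5, Hnrnpa2b1, Hnrnpu and Srsf2, with Hnrnpa0 again). Each line gives the 250 bases before the TSS, read in the direction of the gene from RefSeq on GRCm38.p6. The windows are chr12:80945249-80945498 on the plus strand for Srsf5 and, on the minus strand, chr6:51469895-51470144 for Hnrnpa2b1, chr1:178337816-178338065 for Hnrnpu, chr11:116853095-116853344 for Srsf2, chr13:58128557-58128806 for Hnrnpa0 and chr13:58402118-58402367 for Hnrnpk. Capitals mark a match, on either strand, to any of 8 motifs: the GC box (GGGCGG), the CCAAT box (CCAAT), the ETS core (CCGGAA), the NRF1 core (GCGCANGCG), CRE (TGACGTCA), the E-box (CACGTG), the TATA box (TATAAA) and a forkhead motif (TGTTTAC). Overlapping matches run together, as where a GC box meets an ETS core near the 3′ end of the Srsf5 line.
Srsf5: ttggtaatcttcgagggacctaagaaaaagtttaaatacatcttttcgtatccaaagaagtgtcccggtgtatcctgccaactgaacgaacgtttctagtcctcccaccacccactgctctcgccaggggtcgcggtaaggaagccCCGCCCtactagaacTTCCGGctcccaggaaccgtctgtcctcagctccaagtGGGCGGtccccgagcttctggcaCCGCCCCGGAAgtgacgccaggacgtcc
Hnrnpa2b1: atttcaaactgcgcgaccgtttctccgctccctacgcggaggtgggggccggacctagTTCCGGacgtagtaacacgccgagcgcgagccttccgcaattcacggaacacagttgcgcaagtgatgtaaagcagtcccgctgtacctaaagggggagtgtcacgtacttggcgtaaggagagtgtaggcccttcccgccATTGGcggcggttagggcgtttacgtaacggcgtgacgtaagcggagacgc
Hnrnpu: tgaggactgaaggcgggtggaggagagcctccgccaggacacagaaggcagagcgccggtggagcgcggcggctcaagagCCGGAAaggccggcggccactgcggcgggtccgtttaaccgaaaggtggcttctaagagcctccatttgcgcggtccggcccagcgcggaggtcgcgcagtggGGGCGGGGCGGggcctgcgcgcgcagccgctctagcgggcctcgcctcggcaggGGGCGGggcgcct
Srsf2: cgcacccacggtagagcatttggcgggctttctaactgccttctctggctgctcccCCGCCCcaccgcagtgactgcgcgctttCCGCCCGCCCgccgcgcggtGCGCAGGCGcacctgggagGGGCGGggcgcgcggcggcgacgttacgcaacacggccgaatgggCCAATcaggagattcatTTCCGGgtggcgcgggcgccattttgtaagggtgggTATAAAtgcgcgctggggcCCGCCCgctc
Hnrnpa0: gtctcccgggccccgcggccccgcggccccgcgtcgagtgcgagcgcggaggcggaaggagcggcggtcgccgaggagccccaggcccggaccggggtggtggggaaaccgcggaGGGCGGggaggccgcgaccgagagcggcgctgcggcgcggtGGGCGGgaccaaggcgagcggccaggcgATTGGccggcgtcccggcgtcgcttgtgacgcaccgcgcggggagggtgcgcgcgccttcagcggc
Hnrnpk: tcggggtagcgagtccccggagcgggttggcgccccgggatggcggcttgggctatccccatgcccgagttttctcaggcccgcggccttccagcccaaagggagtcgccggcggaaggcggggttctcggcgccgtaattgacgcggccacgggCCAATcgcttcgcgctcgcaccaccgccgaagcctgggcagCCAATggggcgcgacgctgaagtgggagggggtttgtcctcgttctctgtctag

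GC boxes stand in 4 of these 6 lines and are absent from those of Hnrnpa2b1 and Hnrnpk, and a TATA box stands in that of Srsf2 alone. Over windows from 250 bases before to 50 after the TSS, RefSeq gave sequence for 56 of the 64 genes and for 11411 promoters of protein-coding genes with a region. An ETS core was found in 29 of the 56 (51.8%), against 26.7% of the 11411. The GC box was in 67.9% against 65.7%, the CCAAT box in 48.2% against 38.9%, the NRF1 core in 19.6% against 13.2%, the E-box in 14.3% against 10.2% and the TATA box in 10.7% against 6.95%. CRE was in 3.57% against 3.26%. The forkhead motif was in 2 of the 56 (3.57%), against 2.30%, and a letter match is neither a bound site nor a cause of any value given here.

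The same windows were rich in CpG. The median ratio of observed to expected CpG was 0.920 for the splicing factor genes and 0.757 for all promoters, at nearly the same GC content (60.0% and 61.3%). A ratio of 0.6 or more was found in 54 of the 56 (96.4%), against 71.8%, and the exceptions were Snrpa1 (0.365) and Hnrnpf (0.384). Hnrnp promoters had the highest family median, 1.03, and the GC content was highest in the Srsf family, at a median of 69.0%.

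Splicing factor promoters carried more H3K27ac than most promoters. Their median was 0.982 in EtOH and 1.23 in 4HT, against 0.388 and 0.440 over all 14073 promoters, and the first of these lay at percentile 81.6. A level of 5 fragments or more was reached by 41 of 64 genes in EtOH, where 23.1% of all promoters reached it, and by 39 in 4HT, where 23% did. H2BK120ac divided the groups. The median was 0.445 in ED and 0.512 in ET, next to 0.445 and 0.445 over all promoters, and 1.26 in TD and 1.21 in TT, next to 0.460 and 0.486. None of the 64 reached 5 fragments in ED, where 0.114% of all promoters did, or in ET, where 0.298% did. In TD 17 of 64 did so (6.96% of all), and in TT also 17 (6.02%). Genes with no H2BK120ac coverage numbered 11 in the ED column (19.7% of all promoters), 9 in ET (20%), 1 in TD (19.2%) and 3 in TT (18.3%). For H3K27ac this held for 0 genes in EtOH (5.27%) and 1 in 4HT (10.1%). Put as a share of the promoter signal, the splicing factor regions held 0.564% of the width and 1.19% of the H3K27ac in EtOH, 1.25% in 4HT, and of the H2BK120ac 0.489% (ED), 0.620% (ET), 1.32% (TD) and 1.23% (TT).

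**Figure D1:**
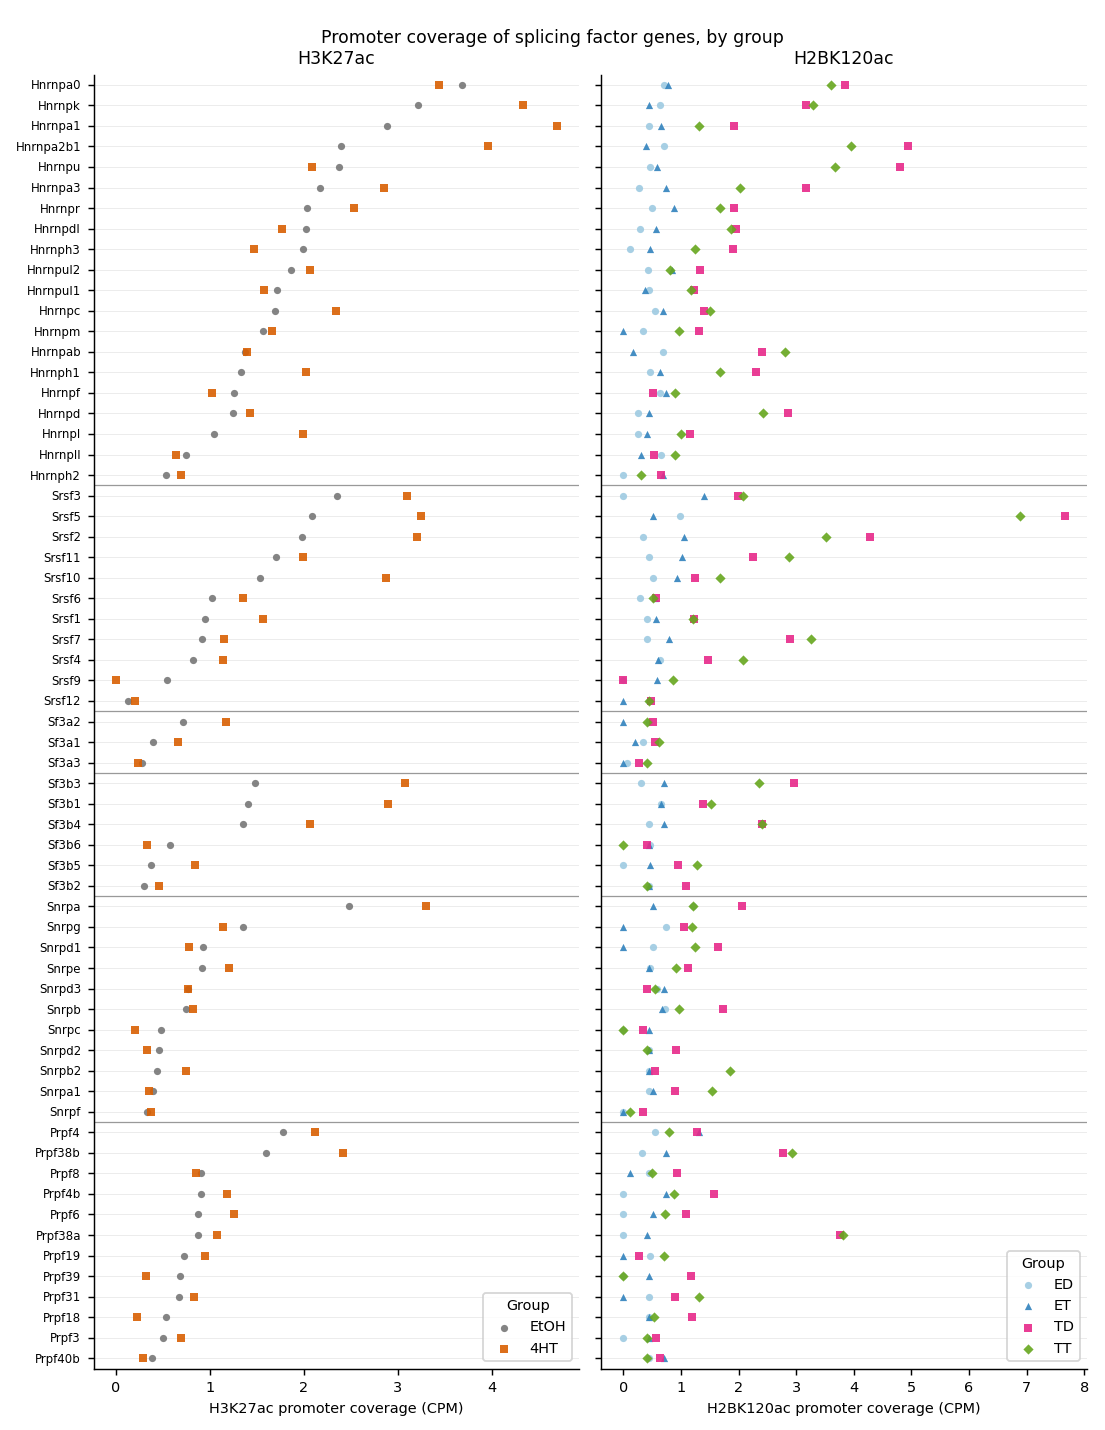
Promoter coverage in CPM (x axis) of 63 of the 64 splicing factor genes (y axis, by symbol family and then by H3K27ac in EtOH), with H3K27ac on the left and H2BK120ac on the right. Each point is 1 merged column, so there are no error bars, and ED and ET points sit at or below 1.39 for every gene while TD and TT points reach 7.66 and 6.88 at Srsf5.

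The genes of the snRNP core, the Sm proteins and the U1 and U2 proteins, stood lower than the other large families, with a median H3K27ac of 0.747 in EtOH over 11 genes. Snrpa, which encodes the A protein of the U1 snRNP, was the exception, with H3K27ac of 2.48 in EtOH and 3.30 in 4HT, and H2BK120ac of 1.20 (ED), 0.512 (ET), 2.06 (TD) and 1.21 (TT). It was the highest of the family in EtOH, 4HT, ED and TD, and its region is also centred within 1 kb of the TSS of BC024978. Snrpg, which encodes SmG of the Sm ring, came next in EtOH, with H3K27ac of 1.35 in EtOH and 1.14 in 4HT, and H2BK120ac of 0.738 (ED), 0 (ET), 1.05 (TD) and 1.20 (TT).

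Snrpf, which encodes SmF, was the lowest of the family in EtOH, with H3K27ac of 0.334 in EtOH and 0.373 in 4HT, and H2BK120ac of 0 (ED), 0 (ET), 0.336 (TD) and 0.114 (TT). Its H2BK120ac was at or under the value of 1 fragment in every column. In EtOH the other Sm genes lay between Snrpf and Snrpg. Snrpb, which encodes SmB, had H3K27ac of 0.747 in EtOH and 0.824 in 4HT, and H2BK120ac of 0.731 (ED), 0.673 (ET), 1.73 (TD) and 0.963 (TT). Snrpd1, which encodes SmD1, had H3K27ac of 0.929 in EtOH and 0.781 in 4HT, and H2BK120ac of 0.508 (ED), 0 (ET), 1.65 (TD) and 1.24 (TT). Both were higher in TD than in any other H2BK120ac group, and Snrpd1 had no H2BK120ac coverage in ET. The remaining Sm genes had less H3K27ac than Snrpg in EtOH. Snrpd2 had H3K27ac of 0.454 in EtOH and 0.331 in 4HT, and H2BK120ac of 0.445 (ED), 0.445 (ET), 0.908 (TD) and 0.415 (TT). Snrpd3 had H3K27ac of 0.769 in EtOH and 0.765 in 4HT, and H2BK120ac of 0.591 (ED), 0.707 (ET), 0.412 (TD) and 0.542 (TT). Snrpe, which encodes SmE, had H3K27ac of 0.915 in EtOH and 1.20 in 4HT, and H2BK120ac of 0.471 (ED), 0.445 (ET), 1.12 (TD) and 0.907 (TT). Of these, Snrpd3 was the gene with less H2BK120ac in TD and TT than in ED and ET.

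Among genes of the U1 and U2 particles, Snrpc, which encodes the C protein of the U1 snRNP, had H3K27ac of 0.477 in EtOH and 0.207 in 4HT, and H2BK120ac of 0 (ED), 0.445 (ET), 0.336 (TD) and 0 (TT). No value of Snrpc in H2BK120ac exceeded that of 1 fragment. Snrpa1 and Snrpb2 encode the A′ and B″ proteins of the U2 snRNP, which bind its RNA as a pair. Snrpa1 had H3K27ac of 0.396 in EtOH and 0.349 in 4HT, and H2BK120ac of 0.445 (ED), 0.518 (ET), 0.896 (TD) and 1.54 (TT). Snrpb2 had H3K27ac of 0.433 in EtOH and 0.747 in 4HT, and H2BK120ac of 0.445 (ED), 0.445 (ET), 0.550 (TD) and 1.86 (TT). In both genes TT was the highest H2BK120ac group, at 3.72 and 4.48 fragments.

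The 3 genes of the SF3a complex, which helps to anchor the U2 snRNP, were the lowest group, with a median H3K27ac of 0.399 in EtOH, close to the 0.388 of all promoters. Sf3a2 had H3K27ac of 0.719 in EtOH and 1.17 in 4HT, and H2BK120ac of 0.445 (ED), 0 (ET), 0.512 (TD) and 0.415 (TT). Sf3a1 had H3K27ac of 0.399 in EtOH and 0.665 in 4HT, and H2BK120ac of 0.334 (ED), 0.199 (ET), 0.553 (TD) and 0.616 (TT). Sf3a3 had H3K27ac of 0.281 in EtOH and 0.231 in 4HT, and H2BK120ac of 0.0556 (ED), 0 (ET), 0.267 (TD) and 0.404 (TT). No column of the 3 genes held 5 fragments but the 4HT column of Sf3a2. The SF3b genes fell into a higher and a lower trio. Sf3b1, which encodes the large subunit that clasps the branch site, had H3K27ac of 1.41 in EtOH and 2.89 in 4HT, and H2BK120ac of 0.652 (ED), 0.662 (ET), 1.38 (TD) and 1.53 (TT). Sf3b3, a scaffold subunit with a region also centred within 1 kb of the TSS of Cog4, had H3K27ac of 1.48 in EtOH and 3.08 in 4HT, and H2BK120ac of 0.308 (ED), 0.709 (ET), 2.97 (TD) and 2.35 (TT). Sf3b4, an RNA-binding subunit, had H3K27ac of 1.35 in EtOH and 2.07 in 4HT, and H2BK120ac of 0.445 (ED), 0.700 (ET), 2.41 (TD) and 2.41 (TT). The 3 values in 4HT were all above 2, and TD and TT were above ED and ET in all 3 genes.

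The lower trio was under 0.6 in EtOH. Sf3b2, the partner of Sf3b4, had H3K27ac of 0.304 in EtOH and 0.459 in 4HT, and H2BK120ac of 0.445 (ED), 0.445 (ET), 1.09 (TD) and 0.415 (TT). Sf3b5, a small subunit, had H3K27ac of 0.375 in EtOH and 0.844 in 4HT, and H2BK120ac of 0 (ED), 0.466 (ET), 0.952 (TD) and 1.28 (TT). Sf3b6, which contacts the branch-point adenosine, had H3K27ac of 0.580 in EtOH and 0.337 in 4HT, and H2BK120ac of 0.462 (ED), 0.445 (ET), 0.412 (TD) and 0 (TT). Sf3b6 was the SF3b gene without a TD value above ED, and it had no coverage in TT.

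The 13 Prpf genes had a median H3K27ac of 0.876 in EtOH with the lowest value at Prpf40b, which is related to a U1-associated yeast factor. Prpf40b had H3K27ac of 0.384 in EtOH and 0.292 in 4HT, and H2BK120ac of 0.445 (ED), 0.714 (ET), 0.630 (TD) and 0.415 (TT). Prpf39, another U1-associated factor, had H3K27ac of 0.680 in EtOH and 0.326 in 4HT, and H2BK120ac of 0 (ED), 0.445 (ET), 1.18 (TD) and 0 (TT). Both genes held less than 1 in H3K27ac in both groups. Prpf8, the scaffold of the catalytic core, had H3K27ac of 0.908 in EtOH and 0.856 in 4HT, and H2BK120ac of 0.445 (ED), 0.111 (ET), 0.940 (TD) and 0.492 (TT). Prpf19, the ubiquitin ligase of the complex named after it, had H3K27ac of 0.723 in EtOH and 0.948 in 4HT, and H2BK120ac of 0.465 (ED), 0 (ET), 0.271 (TD) and 0.707 (TT). Neither gene reached 3 fragments in any H2BK120ac group.

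Prpf38a and Prpf38b, related factors of spliceosome activation, stood out in the TD and TT columns. Prpf38a had H3K27ac of 0.876 in EtOH and 1.07 in 4HT, and H2BK120ac of 0 (ED), 0.405 (ET), 3.75 (TD) and 3.81 (TT), with a region also centred within 1 kb of the TSS of Orc1. Prpf38b had H3K27ac of 1.59 in EtOH and 2.41 in 4HT, and H2BK120ac of 0.332 (ED), 0.736 (ET), 2.77 (TD) and 2.93 (TT). Prpf38a was at percentile 78.6 of all promoters for H3K27ac in EtOH and at percentile 98.6 for H2BK120ac in TT. The U4/U6 and U5 proteins were more even. Prpf3 had H3K27ac of 0.499 in EtOH and 0.690 in 4HT, and H2BK120ac of 0 (ED), 0.445 (ET), 0.566 (TD) and 0.415 (TT). Prpf4 had H3K27ac of 1.78 in EtOH and 2.12 in 4HT, and H2BK120ac of 0.551 (ED), 1.31 (ET), 1.28 (TD) and 0.796 (TT). Prpf31 had H3K27ac of 0.677 in EtOH and 0.834 in 4HT, and H2BK120ac of 0.445 (ED), 0 (ET), 0.890 (TD) and 1.32 (TT). No shared order of the 4 H2BK120ac groups was seen in these 3 genes, and Prpf4 was highest in ET. Prpf6, a bridging protein of the tri-snRNP, had H3K27ac of 0.878 in EtOH and 1.25 in 4HT, and H2BK120ac of 0 (ED), 0.513 (ET), 1.09 (TD) and 0.725 (TT). The kinase gene Prpf4b had H3K27ac of 0.906 in EtOH and 1.18 in 4HT, and H2BK120ac of 0 (ED), 0.736 (ET), 1.58 (TD) and 0.881 (TT). Prpf18, of the second catalytic step, had H3K27ac of 0.529 in EtOH and 0.230 in 4HT, and H2BK120ac of 0.445 (ED), 0.445 (ET), 1.20 (TD) and 0.541 (TT). In these 3 genes TD was the highest H2BK120ac group.

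The 11 SR protein genes had a median H3K27ac of 1.02 in EtOH and a median H2BK120ac of 1.47 in TD. Srsf5 had the highest H2BK120ac of all 64 genes, with H3K27ac of 2.09 in EtOH and 3.25 in 4HT, and H2BK120ac of 0.979 (ED), 0.510 (ET), 7.66 (TD) and 6.88 (TT). In TT it stood at percentile 99.7 of all promoters, while its H3K27ac in EtOH stood at percentile 96.2. Srsf2, also known as SC35, had H3K27ac of 1.98 in EtOH and 3.20 in 4HT, and H2BK120ac of 0.350 (ED), 1.05 (ET), 4.28 (TD) and 3.52 (TT), with a region also centred within 1 kb of the TSS of Mfsd11. Srsf7, an SR protein with a zinc knuckle, had H3K27ac of 0.912 in EtOH and 1.15 in 4HT, and H2BK120ac of 0.406 (ED), 0.787 (ET), 2.90 (TD) and 3.26 (TT). In these 3 genes TD and TT were at 2.90 or more and ED and ET at 1.05 or less.

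Srsf3, the smallest of the classic SR proteins, had the highest H3K27ac of the family in EtOH, with H3K27ac of 2.35 in EtOH and 3.09 in 4HT, and H2BK120ac of 0 (ED), 1.39 (ET), 2.0 (TD) and 2.08 (TT). The gene lacked coverage in ED and had the highest ET value of the 64 genes. Srsf1, the founding SR protein, had H3K27ac of 0.947 in EtOH and 1.57 in 4HT, and H2BK120ac of 0.409 (ED), 0.576 (ET), 1.22 (TD) and 1.22 (TT). Srsf10, known as a splicing repressor when dephosphorylated, had H3K27ac of 1.54 in EtOH and 2.87 in 4HT, and H2BK120ac of 0.512 (ED), 0.926 (ET), 1.24 (TD) and 1.69 (TT). Both were higher in 4HT than in EtOH. Srsf11 had H3K27ac of 1.70 in EtOH and 1.99 in 4HT, and H2BK120ac of 0.445 (ED), 1.02 (ET), 2.26 (TD) and 2.88 (TT). Srsf4 had H3K27ac of 0.826 in EtOH and 1.14 in 4HT, and H2BK120ac of 0.630 (ED), 0.607 (ET), 1.47 (TD) and 2.08 (TT). TT was the highest H2BK120ac group in Srsf4, Srsf10 and Srsf11. Srsf6 had H3K27ac of 1.02 in EtOH and 1.36 in 4HT, and H2BK120ac of 0.291 (ED), 0.549 (ET), 0.559 (TD) and 0.521 (TT), and its TD and TT values stayed near that of 1 fragment although its H3K27ac was above 1 in both columns. The lowest H3K27ac of the family was at Srsf9 and Srsf12. Srsf9 had H3K27ac of 0.540 in EtOH and 0 in 4HT, and H2BK120ac of 0 (ED), 0.587 (ET), 0 (TD) and 0.858 (TT). Srsf12 had H3K27ac of 0.126 in EtOH and 0.207 in 4HT, and H2BK120ac of 0.445 (ED), 0 (ET), 0.480 (TD) and 0.445 (TT).

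The hnRNP genes carried the most H3K27ac of the 6 families, with a median of 1.79 in EtOH over 20 genes, at percentile 94.1 of all promoters, and 18 of the 20 held 5 fragments there. Hnrnpa0, a member of the A/B group, had the highest EtOH value of all, with H3K27ac of 3.68 in EtOH and 3.44 in 4HT, and H2BK120ac of 0.712 (ED), 0.776 (ET), 3.85 (TD) and 3.60 (TT). Hnrnpk, a poly-C binding protein with KH domains, had H3K27ac of 3.21 in EtOH and 4.33 in 4HT, and H2BK120ac of 0.642 (ED), 0.445 (ET), 3.17 (TD) and 3.30 (TT), over a region shared with Rmi1. Hnrnpa1, which shares a region with Cbx5, had H3K27ac of 2.88 in EtOH and 4.69 in 4HT, and H2BK120ac of 0.446 (ED), 0.660 (ET), 1.93 (TD) and 1.32 (TT). Its 4HT value was the highest of the 64 genes, yet it held less than 2 in TD and TT, so that the order of the genes in H3K27ac was not their order in H2BK120ac.

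Hnrnpa2b1, which encodes the A2 and B1 proteins and shares a region with Cbx3, had H3K27ac of 2.40 in EtOH and 3.96 in 4HT, and H2BK120ac of 0.700 (ED), 0.387 (ET), 4.94 (TD) and 3.95 (TT). Hnrnpu, which encodes the scaffold attachment protein SAF-A, had H3K27ac of 2.38 in EtOH and 2.08 in 4HT, and H2BK120ac of 0.464 (ED), 0.580 (ET), 4.80 (TD) and 3.67 (TT). Hnrnpa3 had H3K27ac of 2.17 in EtOH and 2.85 in 4HT, and H2BK120ac of 0.275 (ED), 0.746 (ET), 3.17 (TD) and 2.03 (TT). Hnrnpa2b1 and Hnrnpu came next after Srsf5 in the TD column. Hnrnpab had H3K27ac of 1.37 in EtOH and 1.40 in 4HT, and H2BK120ac of 0.685 (ED), 0.173 (ET), 2.41 (TD) and 2.80 (TT). Hnrnpd, which encodes the AU-rich element binding protein AUF1, had H3K27ac of 1.25 in EtOH and 1.42 in 4HT, and H2BK120ac of 0.260 (ED), 0.445 (ET), 2.87 (TD) and 2.42 (TT). Hnrnpr had H3K27ac of 2.03 in EtOH and 2.53 in 4HT, and H2BK120ac of 0.501 (ED), 0.886 (ET), 1.93 (TD) and 1.68 (TT). All 6 genes had TD and TT values of 1.68 or more and ED and ET values of 0.886 or less.

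The other hnRNP genes had H2BK120ac of 0.509 to 2.30 in TD. Hnrnpc, which binds uridine tracts, had H3K27ac of 1.70 in EtOH and 2.34 in 4HT, and H2BK120ac of 0.546 (ED), 0.696 (ET), 1.40 (TD) and 1.51 (TT). Hnrnpl, which binds CA-rich sequence, had H3K27ac of 1.04 in EtOH and 1.99 in 4HT, and H2BK120ac of 0.258 (ED), 0.404 (ET), 1.16 (TD) and 1.0 (TT). Hnrnpm had H3K27ac of 1.56 in EtOH and 1.66 in 4HT, and H2BK120ac of 0.341 (ED), 0 (ET), 1.31 (TD) and 0.971 (TT). The genes of the F and H group bind runs of G. Hnrnph1 had H3K27ac of 1.33 in EtOH and 2.02 in 4HT, and H2BK120ac of 0.459 (ED), 0.644 (ET), 2.30 (TD) and 1.68 (TT). Hnrnph3 had H3K27ac of 1.99 in EtOH and 1.46 in 4HT, and H2BK120ac of 0.111 (ED), 0.464 (ET), 1.90 (TD) and 1.24 (TT). Hnrnpf had H3K27ac of 1.26 in EtOH and 1.02 in 4HT, and H2BK120ac of 0.635 (ED), 0.734 (ET), 0.509 (TD) and 0.900 (TT). TD was the highest H2BK120ac group in Hnrnph1 and Hnrnph3, and the lowest in Hnrnpf. The lowest H3K27ac of the family in EtOH was that of Hnrnph2, on the X chromosome, with H3K27ac of 0.534 in EtOH and 0.693 in 4HT, and H2BK120ac of 0 (ED), 0.692 (ET), 0.652 (TD) and 0.308 (TT). The remaining 4 genes (Hnrnpdl, Hnrnpll, Hnrnpul1 and Hnrnpul2) had 0.748 to 2.02 in EtOH and 0.534 to 1.96 in TD.

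**Figure D2:**
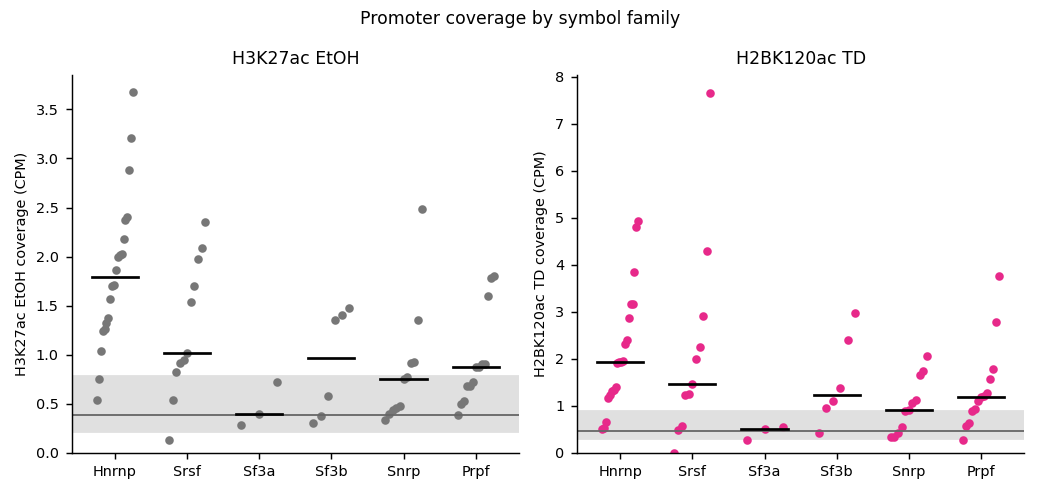
Promoter coverage in CPM (y axis) for H3K27ac in EtOH (left) and H2BK120ac in TD (right) by symbol family (x axis). Points are genes, black bars are family medians, and the grey line and band are the median and quartiles of all 14073 promoters. The Hnrnp medians, 1.79 and 1.93, are the highest of the 6 families and the Sf3a medians, 0.399 and 0.512, the lowest.

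Across the 64 genes the order of the promoters was alike in the H3K27ac columns (Spearman rho 0.92) and in TD and TT (0.84), and less so between H3K27ac in EtOH and H2BK120ac in TD (0.77). In ED and ET the order of the genes showed almost no likeness (0.02). None of the 64 genes reached 5 fragments in ED or ET, 11 and 9 had no coverage there, and many tied at the value of 1 fragment. The values of rho are descriptions over genes, which are not replicates, and each gene brings the same regions and base composition to every column. Over all 14073 promoters the same values were 0.86, 0.71, 0.63 and 0.41.

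The comparison of 4HT with EtOH asks how depletion of FOXD3 changed H3K27ac. The splicing factor promoters were slightly higher in 4HT, as promoters were in general. The median log2 fold, taken on log2(value + 0.2), was 0.29 over the 64 genes and 0.15 over all promoters, and 44 of 64 genes lay above 0, as did 62.0% of all. Summed over the genes the ratio was 1.26 (95% counting interval 1.11 to 1.43), against 1.22 over all promoters and 1.29 over promoters with a mean of 5 fragments of H3K27ac. After quantile normalization of the columns the median was 0.021, beside 0.039 for all promoters. Of the 40 genes whose mean pile-up over both columns was 5 fragments or more, 0 were 2-fold higher (2.96% of 3205 such promoters) and 0 were 2-fold lower (0.156%).

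Among those 40 genes the largest log2 folds were at SF3b genes named above. Sf3b3 had a log2 fold of 0.97, with a ratio of 2.09 (95% counting interval 0.861 to 5.44), and Sf3b1 one of 0.95, with a ratio of 2.06 (95% counting interval 0.790 to 5.13). Srsf10 followed at 0.82, with a ratio of 1.87 (95% counting interval 0.790 to 5.13). Hnrnpl had 0.82, with a ratio of 1.91 (95% counting interval 0.691 to 7.03), and Hnrnpa2b1 had 0.68, with a ratio of 1.65 (95% counting interval 0.768 to 3.37). Sf3b5, with a log2 fold of 0.86, had a mean pile-up of 3.17 fragments and was not among them. Intervals were taken on fragments rounded to whole numbers, so Sf3b1 and Srsf10 share the same one. All 5 intervals included 1, so the direction of each gene lay within counting error. By family the median was 0.70 in Sf3b, 0.53 in Sf3a, 0.37 in Srsf, 0.24 in Prpf, 0.15 in Hnrnp and -0.01 in Snrp.

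Among the 40 genes past the filter the lowest log2 folds were at Hnrnph3, -0.40, with a ratio of 0.734 (95% counting interval 0.245 to 2.02), and at Hnrnpf, -0.25, with a ratio of 0.814 (95% counting interval 0.203 to 2.73). Snrpg, Hnrnpdl and Hnrnpu were at -0.21, -0.17 and -0.17. Without a filter 0 genes were 2-fold higher (4.52% of all promoters) and 1 was 2-fold lower (3.25%). The lower gene was Srsf9, with 0.540 in EtOH and 0 in 4HT, which is 3.28 fragments against none.

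TD against ED changes the first letter of the code while the second is held. H2BK120ac of the splicing factor promoters was higher in TD in 58 of 64 genes, where 53.2% of all promoters were. The median log2 fold, on log2(value + 0.4), was 1.04, against 0.08 over all promoters. Summed over the genes, TD had 106.9 and ED 25.8, a ratio of 4.15 (95% counting interval 3.11 to 5.61). The ratio was 1.64 over all promoters and 2.32 over the 3205 promoters with a mean of 5 fragments of H3K27ac. Without a filter 33 of 64 genes were 2-fold higher in TD, where 20.4% of all promoters were, and 0 were 2-fold lower, where 9.73% were.

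Few promoters held enough fragments for the filter on mean pile-up, and since ED was low at nearly all promoters, a gene passed it through TD: 5 genes did so and all 5 were called higher, where 88.8% of the 366 promoters that passed were higher and 0.546% lower. With the lowest value of each column taken as 1 fragment, 49 genes passed, of which 30 were called higher and 0 lower. That setting was chosen after seeing the data, its unit is 0.25 of the one used elsewhere for H2BK120ac, and the share over all promoters was not taken. A filter that does not use H2BK120ac is a mean of 5 fragments of H3K27ac. Of the 40 genes that met it, 28 were 2-fold higher in TD, against 34.4% of the 3205 promoters, and 0 were 2-fold lower, against 1.84%. The median log2 fold was 1.56 against 0.62. ED and ET also had coverage in more of the regions of the whole table than TD and TT, as given above, and the part of this in the difference was not tested.

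The 5 genes past the filter belong to the SR and hnRNP families. Srsf2 had a log2 fold of 2.64, with a ratio of 12.2 (95% counting interval 1.32 to 401). Hnrnpu had 2.59, with a ratio of 10.3 (95% counting interval 1.64 to 474), and Srsf5 had 2.55, with a ratio of 7.83 (95% counting interval 2.12 to 77.8). In these the interval lay above 1 though it was wide, since ED held 0.786 to 2.20 fragments. All 5 genes passed the filter through TD, so an interval above 1 is no further evidence that TD was higher. Hnrnpa2b1 had 2.28, with a ratio of 7.06 (95% counting interval 1.24 to 51.1). Hnrnpa0 had 1.93, with a ratio of 5.40 (95% counting interval 0.862 to 39.6), an interval that reached below 1. Of these genes, Srsf2 and Hnrnpa2b1 share a region with another gene.

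By family, the median log2 fold in TD against ED was 1.43 in Hnrnp, with 16 of 20 genes 2-fold higher, and 1.28 in Sf3b, with 3 of 6. It was 1.13 in Prpf (7 of 13), 1.0 in Srsf (6 of 11), 0.63 in Snrp (1 of 11, Snrpd1) and 0.38 in Sf3a (0 of 3). Over all promoters 20.4% were 2-fold higher, a share that Snrp and Sf3a did not reach in TD against ED. Prpf38a had the largest value of all, 3.38, from no coverage in ED to 3.75 in TD, at least 2.81-fold higher when ED is set to a floor of 3 fragments. The 5 genes below 0 were Prpf19 (-0.37), Snrpd3 (-0.29), Hnrnpf (-0.19), Hnrnpll (-0.18) and Sf3b6 (-0.09), each at fewer than 2 fragments in both columns.

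TT against ET makes the same change of the first letter with the other second letter, and uses none of the columns of TD against ED. H2BK120ac was higher in TT in 52 of 64 genes, where 55.2% of all promoters were, with a median log2 fold of 0.90 against 0.12. The summed ratio was 2.94 (2.27 to 3.89), against 1.60 over all promoters and 2.07 over promoters with a mean of 5 fragments of H3K27ac. Without a filter 29 genes were 2-fold higher (20.1% of all promoters) and 3 were 2-fold lower (8.72%). The lower genes were Sf3b6, Snrpc and Prpf39, each at 1 fragment in ET and with no coverage in TT. Of the 40 genes with 5 fragments of H3K27ac, 22 were 2-fold higher, against 31% of such promoters, and 0 were 2-fold lower, against 1.87%, with a median of 1.06 against 0.58.

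Since none of the 64 genes reached 5 fragments in ET, genes passed the filter through TT. The 6 genes with a mean pile-up of 5 fragments were all called higher, where 86.9% of the 313 promoters that passed were higher and 0.319% lower. With the lowest value as 1 fragment 24 of the 47 genes that then passed were called higher and 0 lower, and the share over all promoters was not taken. Srsf5 had a log2 fold of 3.0, with a ratio of 13.5 (95% counting interval 2.48 to 662). Hnrnpa2b1 had 2.47, with a ratio of 10.2 (95% counting interval 1.32 to 404), and Prpf38a had 2.39, with a ratio of 9.40 (95% counting interval 1.16 to 367). These were the largest of the 6. Hnrnpu had 2.06, with a ratio of 6.33 (95% counting interval 1.16 to 367). Hnrnpa0 had 1.77, with a ratio of 4.64 (95% counting interval 0.867 to 39.9), and Srsf2 had 1.44, with a ratio of 3.36 (95% counting interval 0.743 to 36.0). The intervals of Hnrnpa0 and Srsf2 included 1. As the 6 genes passed through TT, intervals above 1 at the others are no further evidence that TT was higher. By family the median was 1.08 in Srsf, 1.01 in Sf3a, 1.0 in Hnrnp, 0.91 in Sf3b, 0.63 in Snrp and 0.30 in Prpf.

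Both comparisons were then set side by side. In 48 of 64 genes both log2 folds lay above 0, and in 2, Snrpd3 and Sf3b6, both lay below. There were 19 genes at least 2-fold higher in both, which is 57.6% of the 33 in TD against ED and 65.5% of the 29 in TT against ET. Over all promoters the shares were 43.2% and 43.8%, and 8.80% of all promoters were 2-fold higher in both. More of the splicing factor genes were 2-fold higher in each comparison to begin with, 51.6% and 45.3% against 20.4% and 20.1%. The overlap was not set against these shares, so it does not show closer agreement than at other promoters. Among promoters with 5 fragments of H3K27ac, 18 of 40 were 2-fold higher in both, against 19.8%. In 1 gene, Prpf39, the folds went 2-fold in opposite directions, at fewer than 3 fragments.

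**Figure D3:**
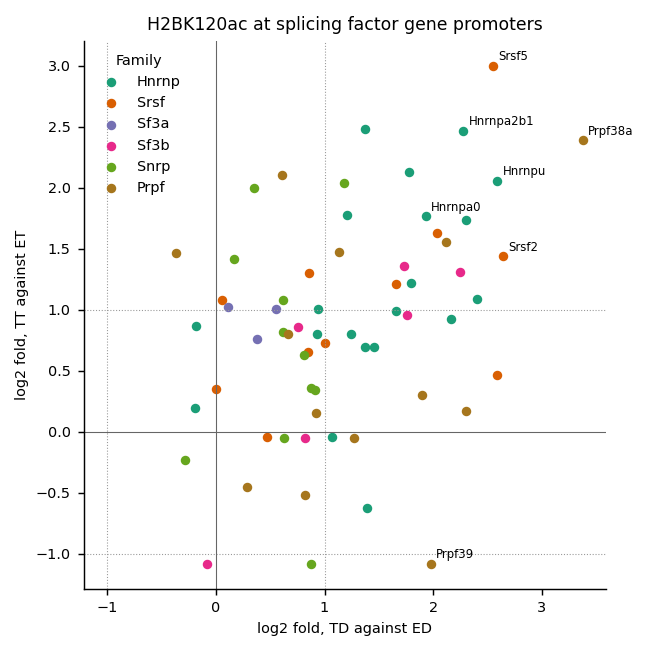
Log2 folds of H2BK120ac at the 64 promoters, TD against ED (x axis) and TT against ET (y axis), coloured by family, with dotted lines at 2-fold. Labelled are the genes called higher in either comparison and Prpf39, and 19 points lie beyond 2-fold in both.

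ET against ED changes the second letter. The median log2 fold was 0.17, against 0 over all promoters, and 41 of 64 genes were above 0 (49.2% of all), with a summed ratio of 1.29 (0.893 to 1.83), an interval that includes 1. No gene reached the pile-up filter, which 21 promoters in all passed, with 0 (0%) called in either direction. Without the filter 10 genes were 2-fold higher (9.35% of all) and 6 lower (9.92%). Of the 40 genes with 5 fragments of H3K27ac, 4 were higher (4.52%) and 2 lower (3.93%). Srsf3, with no coverage in ED and 3.13 fragments in ET, had the largest log2 fold, 2.16, and Snrpg, with 1.66 fragments in ED and none in ET, the lowest, -1.51.

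TT against TD makes the same change of the second letter in the columns where these promoters were high. The median log2 fold was -0.15, against 0, and 25 of 64 genes were above 0 (47.8% of all), with a summed ratio of 0.910 (0.760 to 1.09), an interval that includes 1. Of 15 genes with a mean of 5 fragments, 0 were 2-fold higher (0.574% of 871 promoters) and 0 were lower (2.41%). Without the filter 2 genes were higher (8.16%) and 2 lower (7.84%), and among the 40 genes with 5 fragments of H3K27ac 0 were higher (2.43%) and 0 lower (3.46%). The values at the ends were small. Srsf11 had the highest log2 fold of the 15, 0.31, with a ratio of 1.28 (95% counting interval 0.385 to 5.64), followed by Hnrnpab at 0.19, Srsf7 at 0.15, Prpf38b at 0.07 and Hnrnpk at 0.05. Hnrnpa3 had the lowest, -0.55, with a ratio of 0.641 (95% counting interval 0.162 to 2.18), followed by Hnrnpu at -0.35, Hnrnpa2b1 at -0.30, Sf3b3 at -0.29 and Srsf2 at -0.26.

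**Figure D4:**
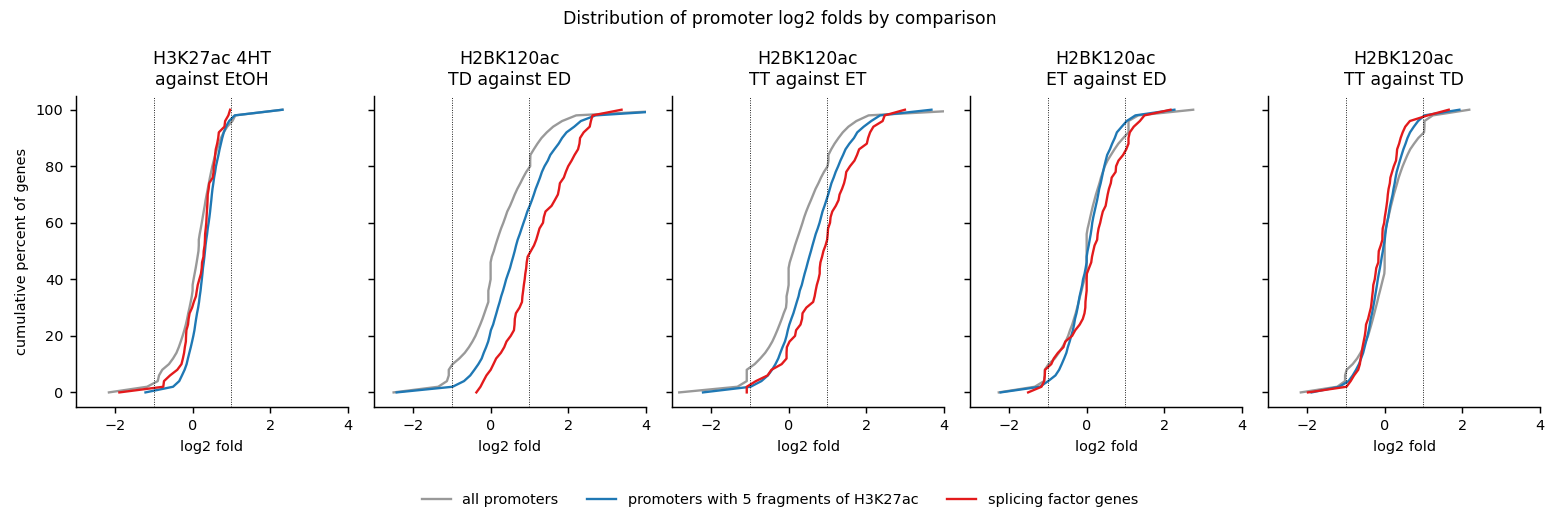
Cumulative percent of genes (y axis) by log2 fold (x axis) in each of the 5 comparisons, for the 64 splicing factor genes (red), all 14073 promoters (grey) and the 3205 promoters with 5 fragments of H3K27ac (blue), with dotted lines at 2-fold. Over most of its length the red curve lies right of both others in TD against ED and TT against ET, where its medians are 1.04 and 0.90, and near them elsewhere.

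Within a promoter, H2BK120ac in TD and TT was more often higher downstream of the TSS than H3K27ac, or than H2BK120ac in ED and ET. Of the 64 genes, 20 had both a region over the TSS and a region downstream of it within 1 kb. H3K27ac in EtOH was higher downstream in 5 of the 20 and in 4HT in 6, while H2BK120ac was higher downstream in 12 in TD and in 11 in TT. Over the 2023 protein-coding genes with both regions the shares were 30.4% in EtOH, 27.9% in 4HT, 35.0% in TD and 34.8% in TT, against 25%, 30%, 60% and 55% of the 20. In ED and ET the downstream region was higher in 6 and 3 of the 20, against 25.8% and 26.1% of all. The downstream regions were narrow, with a median of 181 bp over 23 regions, against 839.5 bp over 62 regions at the TSS. The part of width in the difference was not tested.

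Srsf5 showed the widest gap. Its downstream region, chr12:80945688-80946380 with its centre 534 bp past the TSS and inside the gene span, had 9.90 in TD and 9.86 in TT, against 4.58 and 2.77 in the region over the TSS, which spans the sequence printed above. H3K27ac in EtOH was 1.97 downstream and 2.25 over the TSS. Hnrnpd had 5.55 in TD and 4.40 in TT in a region centred 735 bp downstream, against 1.14 and 1.14 over the TSS. Hnrnpa2b1 had 6.87 and 5.22 downstream, against 4.53 and 3.68, and Hnrnpc had 3.65 and 3.31 downstream, against 1.04 and 1.22. The reverse was found at Hnrnpa0, with 1.64 in TD and 0.745 in TT downstream and 4.22 and 4.09 over the TSS, and at Prpf38a and Sf3b3, where the region over the TSS was also the higher in TD and TT.

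**Figure D5:**
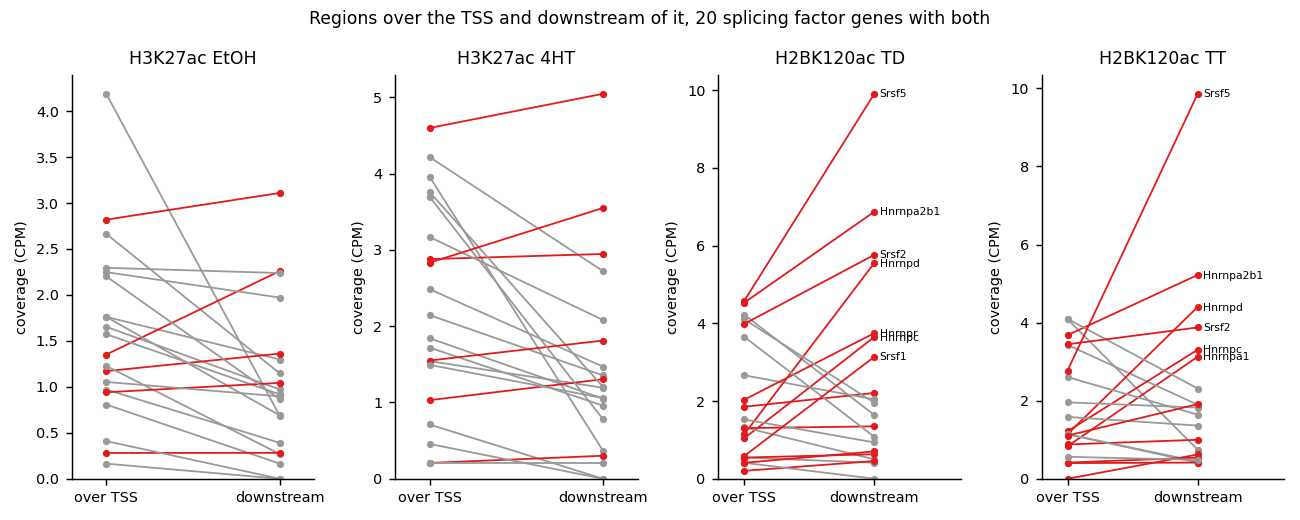
Coverage in CPM (y axis) in the region over the TSS and in the downstream region (x axis) of the 20 splicing factor genes with both, joined by a line for each gene, in H3K27ac EtOH and 4HT and H2BK120ac TD and TT. Red lines rise downstream and are 5, 6, 12 and 11 of the 20 in the order of the panels.

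Other splicing genes had median log2 folds from 0.56 to 1.03 in TD against ED and TT against ET. A list of 63 further spliceosome genes with a region had a median log2 fold of 0.56 in TD against ED, with 20 genes 2-fold higher and 1 lower without a filter, and 0.81 in TT against ET, with 22 higher and 1 lower. For 49 genes of splicing regulators outside the 6 families the medians were 1.02 (25 higher, 0 lower) and 1.03 (26 higher, 0 lower). Over all promoters 20.4% were 2-fold higher and 9.73% lower in TD against ED, and 20.1% and 8.72% in TT against ET. The largest filtered values in TD against ED were those of Rbm17, a factor of the 3′ splice site, with 13.8 in TD and 1.02 in ED, a log2 fold of 3.31, with a ratio of 13.4 (95% counting interval 3.90 to 131). Aqr, which encodes the intron-binding helicase Aquarius, had 4.01 in TD and 0.334 in ED, and Smndc1, a Tudor domain factor, had 3.93 and 0.331. These genes also passed the filter through TD, so the interval of Rbm17 is no further evidence that TD was higher. Of the 63 genes 6 passed the filter and 5 were called higher, and of the 49 genes 7 passed and 7 were called higher. Of all promoters that passed, 88.8% were called higher.

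Other housekeeping groups served as points of reference. The 78 genes of cytosolic ribosomal proteins with a region were close to the splicing factor genes, with a median of 1.02 for H3K27ac in EtOH and 1.29 for H2BK120ac in TD. Their median log2 fold was 1.07 in TD against ED, with 43 genes 2-fold higher (20.4% of all promoters), and 0.86 in TT against ET, with 37 (20.1%). The 36 proteasome genes were lower, with medians of 0.782 and 0.862, and with median log2 folds of 0.48 (12 higher, 2 lower) and 0.64 (12 higher, 1 lower). Higher H2BK120ac of this size in TD and TT was thus also found in a housekeeping group outside splicing.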

How the data were processed

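The deposited tables hold coverage signal in CPM per region of mm10, the build in the submitters' processing notes, which for H3K27ac also name featureCounts and DESeq2 but give them no role. The authors merged replicates (2 or 3) into 1 column per group. Neither labels nor headers state the aligner, the coverage tool or how regions were set. How the bases of a region were averaged is not stated either; missing values were taken as 0. A further 16 IgG columns in 2 tables match no sample and were not used. The marks were analysed apart.

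The TSS was the 5′-most RefSeq start on GRCm38.p6 (58 genes) or the end of the gene span nearest a deposited 5 kb TSS window (8 genes). Folds were taken on log2(value + pseudocount), with 0.2 for H3K27ac and 0.4 for H2BK120ac, the 25th percentile of positive values to 1 digit. A gene was called at 2-fold or more with a mean pile-up of 5 fragments. Intervals are exact 95% Clopper-Pearson limits on the share of pile-up, for counting error only. A pile-up approximates the number of fragments. The genes and lists were chosen with earlier results of these data known. Named were, per comparison, the 5 largest log2 folds in each direction past the filter, the highest levels, the highest and lowest gene of each family and, as other genes of the 6 families are the subject, their values by role; the results of 1 gene are not reported here. The H3K27ac filter on H2BK120ac counts, the split by position and the motifs were chosen after values were seen. Tools were Python 3.11.15, numpy 2.4.6, pandas 2.3.3, scipy 1.17.1 and matplotlib 3.10.9.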

Additional observations from a re-analysis of the deposited data

Results flagged for a closer look

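Prpf39, of the U1-associated Prpf factors, was the gene whose H2BK120ac went 2-fold in opposite directions under the same change of the first letter. TD against ED gave a log2 fold of 1.98 and TT against ET one of -1.08. The values were 0 in ED, 1.18 in TD, 0.445 in ET and 0 in TT, so each rests on fewer than 3 fragments. This opposition was not tested, since each group has 1 merged column.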

How the results depend on the processing

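A median was taken as kept when it moved by less than the counting error of the summed fragments, which is not the error of a median. By this rule the 6 family medians of H3K27ac in EtOH were kept under both alternatives tried, as were 46 of the 49 alternative values of the median log2 folds. The margin was wide in ET against ED, 0.52 around a median of 0.17. Within the rule the H3K27ac median went from 0.29 to 0.15 with median centring. That of TD against ED went from 1.04 to 1.35 with the pseudocount halved and 0.76 with it doubled. No median changed direction. The count of genes past 2-fold in H3K27ac, 0 in the report, became 1 with the pseudocount halved or with the region of highest mean alone (Sf3b3), 1 with an unweighted mean over regions (Hnrnpl), 2 with centres within 500 bp (Hnrnpa2b1 and Sf3b3), 1 with no filter (Srsf9, lower) and 9 at 1.5-fold, and its median of 0.29 became 0.021 after quantile normalization. The 9 genes at 1.5-fold, all higher, were among the 40 past the filter. Over all promoters past that filter percentile 78 of the log2 folds was 0.58, about 1.5-fold, so the 9 genes were near the share of such promoters. TD against ED, 5 genes in the report, became 3 without genes that share a region, 16 of the 17 that passed a minimum of 3 fragments and 33 with no filter. Its median was 2.55 over the 5 genes past the filter, which they passed through TD. TT against ET, 6 genes in the report, became 3 with an unweighted mean, 3 without genes that share a region, 17 of the 20 that passed 3 fragments and 32 with no filter (29 higher, 3 lower). Its median was 2.22 over the 6 genes past the filter, which they passed through TT. ET against ED went from 0 to 16 and TT against TD from 0 to 4 with no filter. With the lowest value as 1 fragment, chosen after seeing the data, the counts were 30 of 49 genes that passed in TD against ED and 24 of 47 in TT against ET. They were 1 of 20 in ET against ED, 2 of 53 in TT against TD (1 higher, 1 lower) and 0 of 40 in H3K27ac. Fewer or more genes enter under each of these filters, and the cause of the other changes was not tested. Shares over all promoters are given in this report for the counts with no filter, and were not counted for the other settings. After quantile normalization the median over all promoters was 0.21 in TD against ED, from 0.08, and 0.30 in TT against ET, from 0.12, and the unfiltered counts of splicing factor genes were 33 and 34 higher with 0 lower. Of all promoters 21.9% and 22.8% were then 2-fold higher and 4.03% and 3.33% lower. No paired analysis was possible because the replicates of each group are merged in 1 column, and for the same reason no replicate could be left out. At 2.25 M to 2.43 M fragments, 11 of the 64 genes in ED and 9 in ET had no H2BK120ac coverage, so differences among low promoters were not detectable at this depth.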
